A study of Arabidopsis thaliana with 9 samples.

Results

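The 10 loci described here are 3 ferritin genes and 7 genes of the iron deficiency response of Arabidopsis thaliana. The list was chosen with earlier results of these data known, but not by a threshold on the values of its loci. The loci are FER1, FER3, FER4, BHLH38, BHLH39, BHLH100, PYE, BTS, OPT3 and NAS3. Of the 10, 9 had a row among the 21176 genes of the table, BHLH39 (AT3G56980) having none, and 8 reached the mean normalised count of 10 needed for testing, as 18650 genes did. BHLH38 fell short of that mean and is described by its values.

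The RNA came from rosette leaves of 5-week-old plants of the accession Col-0, grown in hydroponic culture on a medium with 100 µM FeNaEDTA as the iron source, under 13 h of light and 11 h of darkness. Phase 1 plants were sampled 2 days after their NaCl, raised in steps of 15 mM per day, had reached 90 mM. Phase 0 plants were sampled 1 h after a single addition of 105 mM NaCl, and Control plants had no added NaCl. Each group has 3 libraries of 75 bp reads. Dose, exposure time and mode of salting all differ between Phase 1 and Phase 0 and cannot be told apart there, and both are set against the same 3 Control libraries. The labels do not say that replicates are separate plants, so p-values measure only the spread between these libraries.

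Total normalised counts were 22786946 to 25522714 in the Phase 1 libraries, 24136851 to 25513236 in the Phase 0 libraries and 25801397 to 27820610 in the Control libraries. The leaf markers RBCS1A, CAB1, LHCA1 and LHCA3 summed to 911279 to 1072527 in Phase 1, 1248032 to 1263559 in Phase 0 and 1455970 to 1656643 in Control libraries. Of 4 root markers, PIN2, EXPA7 and COBL9 had no row and CASP1 did not exceed 2. Phase 0 replicate 2 stood apart in organelle-encoded transcripts, which made up 0.605% of its total against 0.0414% to 0.0575% in the other libraries.

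Ferritin is the plastid shell that stores iron in a safe, oxidised form, and its transcripts in Arabidopsis are known to rise with iron supply and oxidative stress. When iron runs short, basic helix-loop-helix (bHLH) transcription factors switch on genes for uptake and internal transport, and the ubiquitin ligase BTS restrains them. OPT3 and nicotianamine, the iron-binding compound that NAS3 makes, carry iron in and out of the vascular tissue.

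The sequences just upstream of the genes show a feature that divides the set. The G-box CACGTG, a palindrome and therefore the same on both strands, is recognised by many bHLH and bZIP factors. It lay within 100 bases upstream of the annotated gene start in FER3, FER4, BHLH38, BHLH100, BTS and OPT3, that is in 6 of the 10 genes. This compares with 3.61% of 27444 protein-coding genes and 4.38% of the 18209 tested genes that have an annotated start. Within 250 bases the same 6 genes held it, against 6.49% of genes and 7.48% of tested genes. BTS held 3 copies there, starting at -146, -124 and -70 from the gene start. The last 100 bases before each gene start follow, 5′ to 3′ on the strand of the gene, from RefSeq TAIR10.1, with the G-box in capitals. FER3 and BHLH38 lie on the minus strand of chromosome 3, FER4 and BHLH100 on the minus strand of chromosome 2, BTS on the plus strand of chromosome 3 and OPT3 on the minus strand of chromosome 4.
FER3: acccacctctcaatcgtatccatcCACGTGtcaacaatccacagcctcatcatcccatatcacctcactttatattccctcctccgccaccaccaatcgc
FER4: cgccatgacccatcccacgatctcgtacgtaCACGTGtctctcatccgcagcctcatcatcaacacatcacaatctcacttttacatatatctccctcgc
BHLH38: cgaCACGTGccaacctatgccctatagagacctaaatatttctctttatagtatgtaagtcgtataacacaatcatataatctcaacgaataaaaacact
BHLH100: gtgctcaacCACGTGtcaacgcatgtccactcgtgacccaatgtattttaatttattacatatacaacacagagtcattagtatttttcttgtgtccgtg
BTS: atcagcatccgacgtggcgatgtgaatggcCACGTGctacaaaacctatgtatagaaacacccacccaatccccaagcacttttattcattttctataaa
OPT3: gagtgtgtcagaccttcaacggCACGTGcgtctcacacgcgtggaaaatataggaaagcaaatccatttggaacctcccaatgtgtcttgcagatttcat

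In these lines the G-box started at -76 in FER3, -69 in FER4, -97 in BHLH38, -91 in BHLH100, -70 in BTS and -78 in OPT3, counted from the gene start. FER1, BHLH39, PYE and NAS3 had no CACGTG in their 250 bases. FER1, on the minus strand of chromosome 5, held the 14-base iron-dependent regulatory sequence known from work on its repression at low iron. It lay downstream of the gene start, outside the window searched for the G-box, and came from a wider search. The sequence is printed in capitals because every base belongs to the searched pattern CACGAGNCCNCCAC.
FER1 iron-dependent regulatory sequence: CACGAGGCCGCCAC

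This run began 267 bases after the annotated start of FER1, in an exon, and 190 bases before the start codon. The pattern was found, on either strand, in 2 of 27444 genes taken with 1000 bases on each side, which is 0.00729% of genes. The morning clock factor CCA1 binds AATATCT, which on either strand was present in the 250 bases of FER3 and NAS3. That is 2 of 10 genes, against 10.3% of the 18209 tested genes that have an annotated start. Within 100 bases 0 of 10 held it, against 4.35% of those tested genes. A match describes these letters and does not show binding.

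Among the 8 tested genes, FER1 and NAS3 rose in Phase 1 leaves against Control leaves and none fell. Over all tested genes 17.4% rose and 18.6% fell in that comparison (36.1% in all, adjusted p under 0.05). The same genes, FER1 and NAS3, rose in Phase 1 leaves against Phase 0 leaves and none fell, where 13.7% of all tested genes rose and 14.4% fell (28.1% in all). In Phase 0 leaves against Control leaves, 0 of the 8 passed the limma test, and 0 had an unadjusted p under 0.05, where 2.93% of all tested genes were called, 1.28% higher and 1.66% lower. At 2 of 8 against a background of 36.1% the count of called genes is no larger than that of genes at large.

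The groups did not overlap for 2 of the 8 genes in Phase 1 against Control, against 47.4% of all tested genes (23.7% with Phase 1 higher). They did not overlap for the same 2 in Phase 1 against Phase 0, against 50.2% (24.9% with Phase 1 higher). In Phase 0 against Control they did not overlap for 1 of 8, NAS3, which was lower, against 23.2% in either direction (11.1% with Phase 0 higher). The median log2 fold change of the 8 genes was 0.36 in Phase 1 against Control, 0.54 in Phase 1 against Phase 0 and -0.018 in Phase 0 against Control. Over all tested genes these medians were 0.0043, -0.0083 and 0.010. In whole leaves, a change in the share of cells that express a gene and a change in RNA per cell cannot be told apart.

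**Figure D1:**
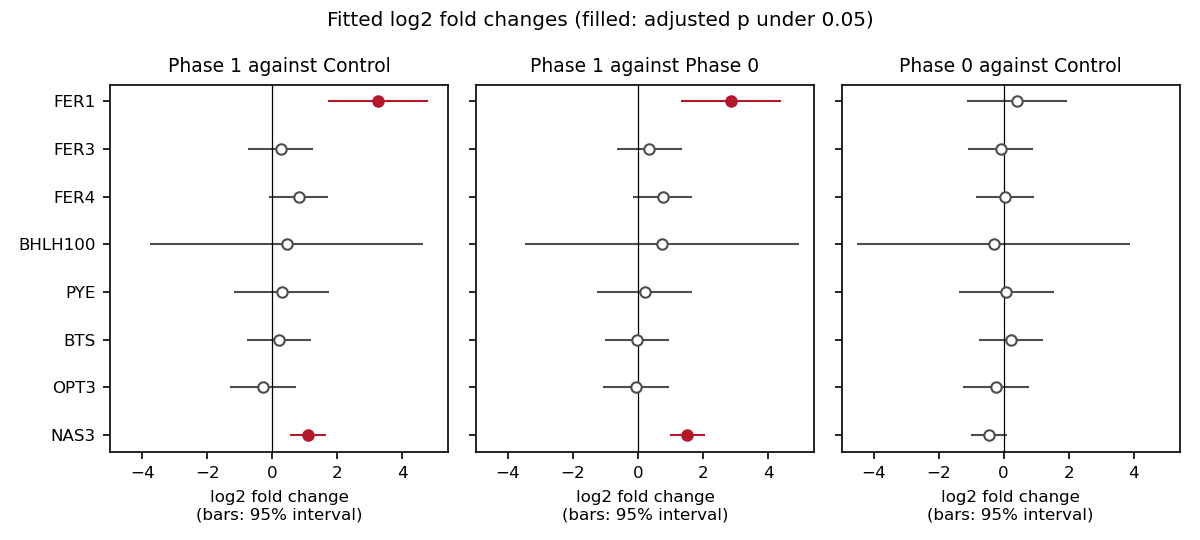
Fitted log2 fold changes of the 8 tested genes in 3 comparisons, as points with 95% intervals; filled points have an adjusted p under 0.05. FER1 (3.25 and 2.85) and NAS3 (1.09 and 1.52) are filled in both comparisons of Phase 1, and no point is filled for Phase 0 against Control.

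FER1 (AT5G01600), the main leaf ferritin, had the largest change of the set. Its normalised counts were 13620, 3155 and 38604 in Phase 1 libraries 1 to 3, 2206, 1076 and 1861 in Phase 0 libraries and 1046, 1553 and 1174 in Control libraries. All Phase 1 libraries lay above all others, but they were themselves 12.2-fold apart, whereas the Control libraries were 1.48-fold apart. The fitted log2 fold change was 3.25 in Phase 1 against Control (SE 0.69, 95% interval 1.72 to 4.79, adjusted p = 0.00475), a 9.54-fold rise of the fitted values. Only 0.622% of tested genes had a larger fitted rise.

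Against Phase 0 leaves, FER1 was 2.85 higher on the log2 scale in Phase 1 leaves (SE 0.69, adjusted p = 0.0119). This call did not hold without Phase 0 replicate 2, the library rich in organelle transcripts (2.55, adjusted p = 0.0507), nor without that library and Control replicate 1 together (adjusted p = 0.0510). The size of the rise against Control depended on single Phase 1 libraries: it was 4.21 without Phase 1 replicate 2 and 2.40 without Phase 1 replicate 3. Against Phase 0 the same omissions gave 3.80 and 2.00. In Phase 0 leaves the difference from Control was 0.40 (SE 0.69, adjusted p = 0.801), and the groups overlapped. That SE comes from all 3 groups and so includes the wide spread of the Phase 1 libraries. Under the 20 alternatives, a fit of only the 2 groups compared among them, the limma adjusted p ran from 0.486 to 0.930.

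FER3 (AT3G56090), a second ferritin of green tissue, was much steadier outside Phase 1. It had normalised counts of 1001, 497 and 2577 in Phase 1, 888, 704 and 999 in Phase 0 and 834, 870 and 1022 in Control libraries. The Phase 1 libraries held both the lowest and the highest value of the 9, so the groups overlapped. The log2 fold change was 0.26 in Phase 1 against Control (95% interval -0.74 to 1.26, adjusted p = 0.679) and -0.082 in Phase 0 against Control (adjusted p = 0.944). The first became -0.36 without Phase 1 replicate 3.

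FER4 (AT2G40300), a ferritin with a plastid and a mitochondrial form, had 903, 631 and 2043 normalised counts in Phase 1, 773, 429 and 721 in Phase 0 and 415, 804 and 650 in Control libraries. Phase 1 replicate 3 stood above the rest and the groups overlapped. The log2 fold change was 0.81 in Phase 1 against Control (95% interval -0.093 to 1.71, adjusted p = 0.145) and 0.76 in Phase 1 against Phase 0 (adjusted p = 0.193). In Phase 0 against Control it was 0.047 (adjusted p = 0.966).

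**Figure D2:**
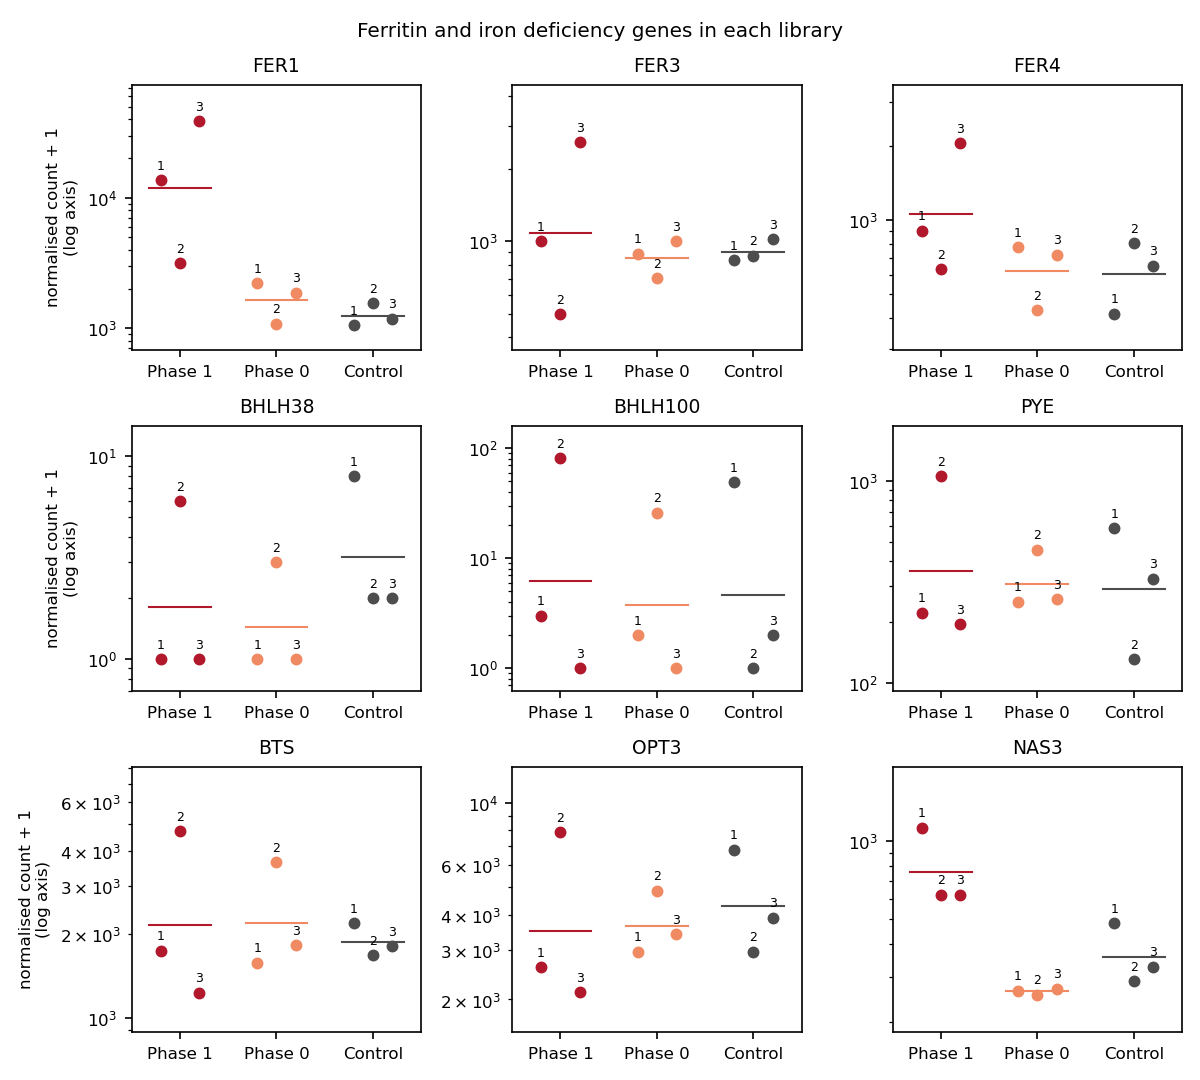
Normalised count plus 1 of each of the 9 genes in the table, on log axes, by group; points are libraries with their replicate number, and lines are the means of the log values. The FER1 points of Phase 1 lie above all others but are 12.2-fold apart, and in the BHLH38, BHLH100, PYE, BTS and OPT3 panels the highest points are Phase 1 replicate 2, Phase 0 replicate 2 and Control replicate 1.

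The make-up of the ferritin transcript pool was set out per library. Per kilobase of transcript, FER1 made up 82.0 ± 9.27% of the sum of FER1, FER3 and FER4 in Phase 1 leaves, 49.7 ± 4.20% in Phase 0 leaves and 42.2 ± 3.40% in Control leaves (SD, n = 3 each). FER3 made up 8.71 ± 3.30%, 29.0 ± 4.57% and 34.5 ± 5.46% in the same order of groups, and FER4 9.33 ± 5.97%, 21.3 ± 0.471% and 23.3 ± 3.73%. The FER1 share was above that of every other library in all 3 Phase 1 libraries, also in replicate 2, where it was 71.3%.

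Taken as a ratio within each library, the log2 of FER1 over FER3 was 3.77, 2.67 and 3.90 in Phase 1, 1.31, 0.61 and 0.90 in Phase 0 and 0.33, 0.84 and 0.20 in Control libraries. Phase 1 libraries exceeded those of Control by 2.99 (SE 0.44) and those of Phase 0 by 2.51 (SE 0.44), without overlap. FER1 over FER4 was higher by 2.45 (SE 0.61) in Phase 1 than in Control and by 2.09 (SE 0.60) than in Phase 0, again without overlap. For each of these 4 differences the exact permutation test, two-sided, gave p = 0.1, the smallest that 3 against 3 libraries allows, and 0.225 after adjustment over the 9 ratio tests. Phase 0 exceeded Control by 0.49 for FER1 over FER3 and by 0.36 for FER1 over FER4, with overlap (p = 0.2 for each in the exact test). The ratio of FER4 to FER3 overlapped between groups in every comparison, with exact p-values of 0.2 to 0.8. No 75-base run was shared between the transcripts of FER1, FER2, FER3 and FER4, so reads of that length matching fully belong to 1 of them.

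**Figure D3:**
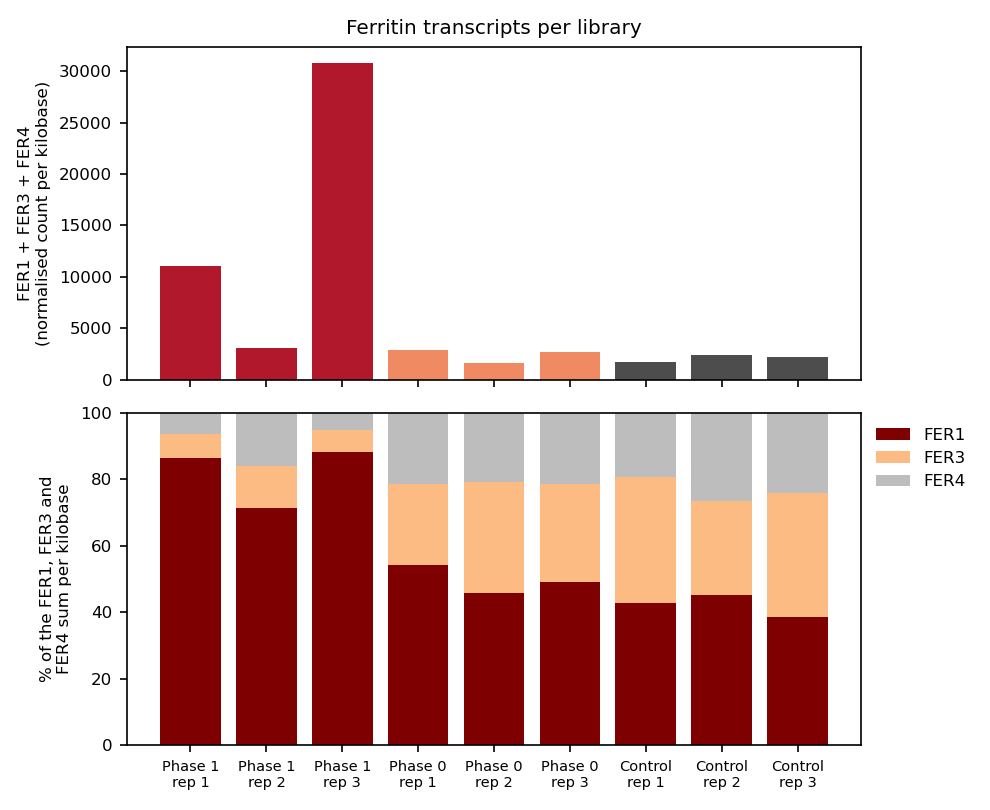
Ferritin transcripts in each library: the sum of FER1, FER3 and FER4 in normalised counts per kilobase (top) and the percentage of that sum from each gene (bottom). FER1 averages 82.0% in Phase 1, 49.7% in Phase 0 and 42.2% in Control libraries, and Phase 1 replicate 2 has the smallest sum of its group with a FER1 share of 71.3%.

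The subgroup Ib bHLH factors, which pair with FIT to turn on root iron uptake and are induced in leaves too when iron is short, were near the limit of detection in most libraries. BHLH100 (AT2G41240) had 2, 80 and 0 normalised counts in Phase 1, 1, 25 and 0 in Phase 0 and 48, 0 and 1 in Control libraries. In each group 1 library carried nearly all of the signal, and the groups overlapped. The log2 fold change had an SE of 1.90 in each comparison and adjusted p-values of 0.878 in Phase 1 against Control, 0.805 in Phase 1 against Phase 0 and 0.951 in Phase 0 against Control. BHLH38 (AT3G56970) had 0, 5 and 0 in Phase 1, 0, 2 and 0 in Phase 0 and 7, 1 and 1 in Control libraries, with its highest value in the same 3 libraries as BHLH100. With the filter on low values lifted, BHLH38 gave -0.81 in Phase 1 against Control and -1.14 in Phase 0 against Control (adjusted p = 0.517 and 0.528).

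PYE (AT3G47640), a bHLH factor that represses some iron deficiency genes and is itself induced by deficiency, had 221, 1055 and 194 normalised counts in Phase 1 libraries. It had 251, 454 and 259 in Phase 0 and 583, 130 and 326 in Control libraries. The library with 1055 stood 5.44-fold above the lowest of its group, and the Control libraries differed 4.48-fold. The log2 fold change was 0.29 in Phase 1 against Control (SE 0.66, adjusted p = 0.759), 0.21 in Phase 1 against Phase 0 and 0.084 in Phase 0 against Control. All 3 groups overlapped.

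BTS (AT3G18290), the iron-binding ubiquitin ligase that marks bHLH factors for breakdown, had 1744, 4724 and 1229 normalised counts in Phase 1, 1577, 3650 and 1829 in Phase 0 and 2192, 1678 and 1808 in Control libraries. Replicate 2 was the highest in both salt groups, and the groups overlapped. The log2 fold change was 0.20 in Phase 1 against Control (SE 0.44, adjusted p = 0.751), -0.019 in Phase 1 against Phase 0 and 0.22 in Phase 0 against Control (adjusted p = 0.832).

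OPT3 (AT4G16370), which loads iron into the phloem and is needed for the shoot to report its iron status, had 2603, 7866 and 2120 normalised counts in Phase 1 libraries. It had 2960, 4859 and 3406 in Phase 0 and 6812, 2953 and 3906 in Control libraries. The highest and the lowest of all 9 values were both Phase 1 libraries. The log2 fold change was -0.29 in Phase 1 against Control (SE 0.46, adjusted p = 0.656), -0.058 in Phase 1 against Phase 0 and -0.23 in Phase 0 against Control. Of 3 phloem and vascular markers in Phase 1 against Control, SUC2, of phloem companion cells, fell (log2 change -0.77, adjusted p = 0.00194). APL, a phloem identity factor, rose by 0.52 in that comparison (adjusted p = 0.0119). ATHB8, a factor of the early vascular strand, was at 0.28 (adjusted p = 0.486). Their sum was 3390 to 3991 in Phase 1, 4336 to 4595 in Phase 0 and 4493 to 6150 in Control libraries, and their part in the OPT3 values was not tested.

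NAS3 (AT1G09240), a nicotianamine synthase of the shoot, had 1124, 621 and 620 normalised counts in Phase 1, 264, 255 and 269 in Phase 0 and 480, 287 and 327 in Control libraries. The 3 groups did not overlap with one another: Phase 1 was highest and Phase 0 lowest. In Phase 1 leaves NAS3 was higher than in Control leaves by 1.09 on the log2 scale (SE 0.25, 95% interval 0.53 to 1.64, adjusted p = 0.00699), a 2.12-fold rise of the fitted values. Against Phase 0 leaves it was higher by 1.52 (SE 0.25, adjusted p = 0.00136). Both calls held in each of the 20 alternatives. The Phase 0 value was lower than the Control value by a log2 change of -0.44 that did not pass the test (adjusted p = 0.373).

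Levels per kilobase set the genes on one scale. In Phase 1 leaves FER1 stood first at 12990.6 ± 12817 normalised counts per kilobase and OPT3 second at 1555 ± 1181. In Phase 0 leaves OPT3 had 1387 ± 368 and FER1 1206 ± 408 per kilobase, and in Control leaves OPT3 had 1689 ± 745 and FER1 885 ± 186 (SD, n = 3 each). FER3, FER4, BTS, PYE and NAS3 lay below them in each group, from 1064 for FER3 in Phase 1 leaves to 187 for NAS3 in Phase 0 leaves. BHLH100 followed at 7.49 to 23.6 and BHLH38 at 0.616 to 2.77 per kilobase. Neighbours in this order among the 7 well expressed genes had overlapping ranges of mean ± 1 SD, except FER1 with FER3 and FER4 with PYE in Phase 0 leaves.

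Pooled over the 3 groups, these genes varied more between libraries of 1 group than most genes did. The spread was not even across groups. The highest value over the lowest was 12.2 in Phase 1, 2.05 in Phase 0 and 1.48 in Control libraries for FER1. In the same order of groups it was 5.19, 1.42 and 1.23 for FER3, and 3.84, 2.31 and 1.31 for BTS. For PYE it was 5.44, 1.81 and 4.48, and for OPT3 3.71, 1.64 and 2.31. The within-group SD of log2(value + 1) had a median of 0.233 and a 95th percentile of 0.690 over all tested genes. It was 2.94 for BHLH100, 1.11 for FER1, 1.04 for PYE, 0.718 for OPT3, 0.709 for FER3 and 0.700 for BTS, all above that percentile. FER4 had 0.634, above 93.5% of tested genes, and NAS3 0.362, above 75.6%. Low values add to the spread of BHLH100. For the well expressed members the comparison with genes of like level, within 0.5 of their mean log2 value, gave 99.6% of genes with a smaller SD for FER1 and for PYE, and 98.8% for OPT3.

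**Figure D4:**
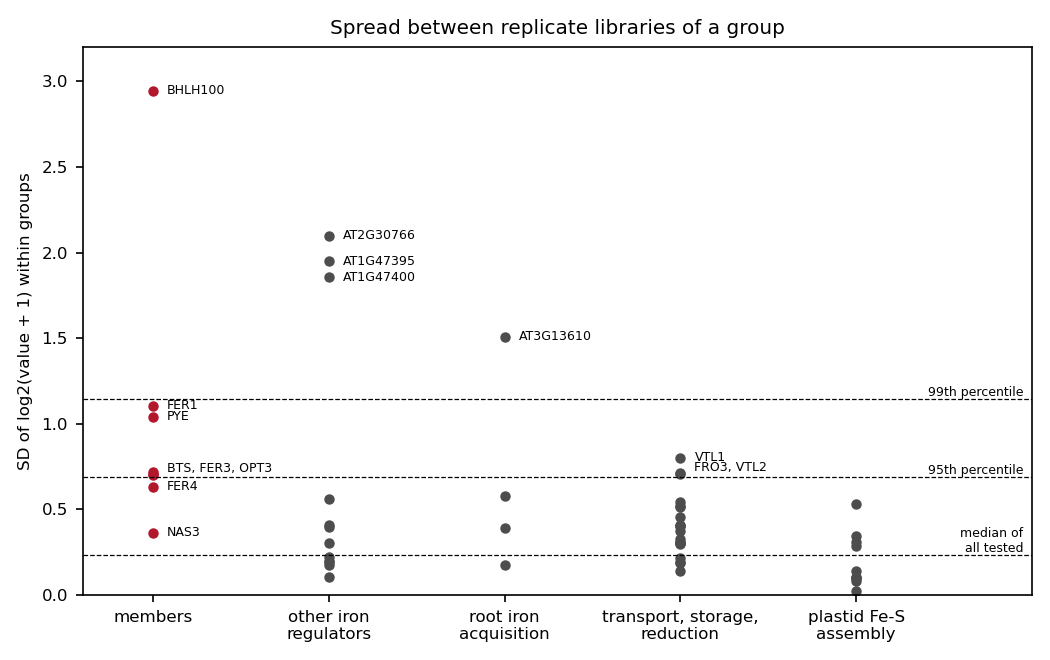
Within-group SD of log2(value + 1), pooled over the 3 groups of the 9 libraries, for each tested gene of the set (red) and of 4 lists of other iron genes (grey). Dashed lines are the median (0.233), 95th percentile (0.690) and 99th percentile (1.14) of all tested genes; 6 of the 8 red points lie above the 95th percentile line, and BHLH100, AT2G30766, AT1G47395, AT1G47400 and AT3G13610 above the 99th.

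The spread had a direction in common. BHLH38, BHLH100, PYE, BTS and OPT3 were each highest in Phase 1 replicate 2 among Phase 1 libraries, in Phase 0 replicate 2 among Phase 0 libraries and in Control replicate 1 among Control libraries. FER1, FER3 and FER4 were each lowest in those same 3 libraries. The 3 libraries were picked out after the BHLH100 values had been seen, so the counts are a description only. Of the 9 genes with a row, 5 were highest and 3 lowest in these 3 libraries, against 4.89% and 3.69% of all tested genes. The 5 include BHLH100, whose match was fixed by that choice, and BHLH38, which was too low to test. NAS3 followed neither order.

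Some of the other iron genes showed the same order of libraries. Of all tested genes 4.89% were highest and 3.69% lowest in the 3 libraries. The values were highest in the 3 libraries for 4 of 14 further regulators in the table, BHLH101 and the loci AT1G47400, AT1G47395 and AT2G30766, and for 6 of 21 genes of transport, storage and reduction. Those 6 were NAS1, NAS4, YSL3, NRAMP4, ZIF1 and FRO3, and of 4 root uptake genes it was AT3G13610. AT2G30766 had 289, 2742 and 82 normalised counts in Phase 1, 110, 698 and 293 in Phase 0 and 1572, 73 and 428 in Control libraries. AT1G47400 had 11, 129 and 7 in Phase 1, 16, 111 and 34 in Phase 0 and 188, 12 and 47 in Control libraries. Lowest in the 3 libraries were 2 of the 21 genes of transport, storage and reduction, NRAMP3 and FRO8, and 0 of the 14 regulators. Of the 10 genes of plastid iron-sulphur assembly, 0 were highest there and 1 was lowest. It was NEET, an iron-sulphur protein of plastids and mitochondria. VTL1 and VTL2 were lowest of their groups in Phase 1 replicate 2 and Phase 0 replicate 2 but highest in Control replicate 1.

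Other measures of the 3 libraries did not share 1 value. The organelle share was 0.0575% in Phase 1 replicate 2, 0.605% in Phase 0 replicate 2 and 0.0436% in Control replicate 1. The summed senescence markers SAG13 and NYE1 stood at 1374 in Phase 1 replicate 2, between the 1718 and 1077 of the other Phase 1 libraries. They stood highest of their groups in Phase 0 replicate 2, at 1948, and in Control replicate 1, at 1404. The part of either measure in the order of the iron genes was not tested.

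**Figure D5:**
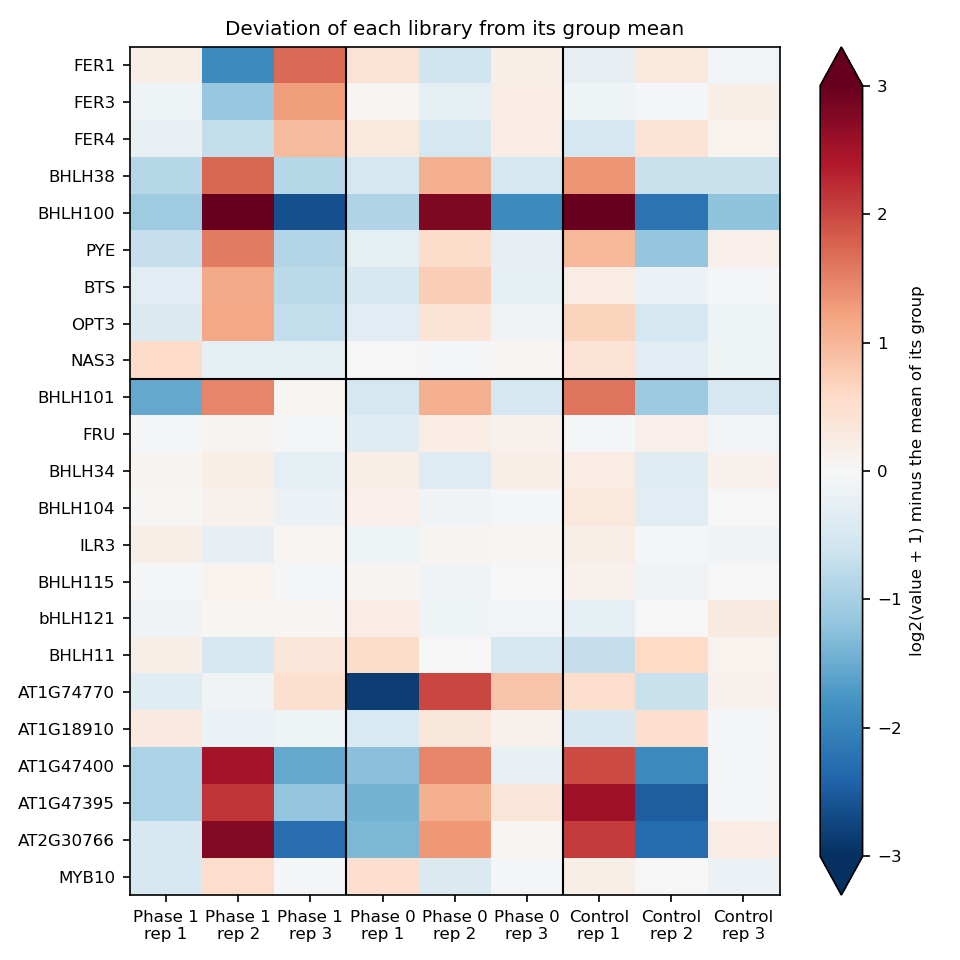
Deviation of log2(value + 1) in each library from the mean of its group, for the 9 genes of the set in the table (above the line) and the 14 further iron regulators in the table (below it); red is above and blue below the group mean. Columns Phase 1 rep 2, Phase 0 rep 2 and Control rep 1 are red for BHLH38, BHLH100, PYE, BTS and OPT3 and blue for FER1, FER3 and FER4.

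Likeness of pattern was measured as the root mean square difference, over the 9 libraries, of log2 values centred on the mean of each gene. The gene closest to FER1 among 18649 others was VTL1 (0.57), a vacuolar iron transporter-like protein, with 109, 34 and 170 normalised counts in Phase 1, 26, 11 and 17 in Phase 0 and 22, 14 and 12 in Control libraries. The closest 5 genes with a symbol in the reference were MGL (0.83), CLC-B (0.88), MIPS2 (0.92), CER1 (0.93) and RXW8 (0.93). The closest member, FER4, ranked 347. FER3 was nearer to FER4 (0.37, rank 7).

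PYE stood in for BHLH39, which has no row, a choice made after its values were seen. The nearest genes with a symbol in the reference were ORG1 (0.31), OPT3 (0.39), FRO3 (0.45), LSU4 (0.45) and BTS (0.48), at ranks 1, 2, 4, 5 and 7 among tested genes. ORG1 had 2048, 6804 and 1177 normalised counts in Phase 1, 2161, 4658 and 2366 in Phase 0 and 5922, 1655 and 2790 in Control libraries. BTS and OPT3 were each near to the other (0.33, ranks 5 and 6), and the nearest member to BHLH100 was PYE (rank 12). The member nearest to NAS3, FER4, ranked only 8974. Likeness here includes the spread between libraries of a group as well as differences between groups.

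The wider iron network was described with 59 further genes in 4 lists, of which 49 were in the table and 46 were tested. In Phase 1 against Control 13 rose and 3 fell, in Phase 1 against Phase 0 9 rose and 1 fell, and in Phase 0 against Control 1 rose and 0 fell. Their median log2 fold changes were 0.13, 0.13 and -0.079. Of all tested genes 17.4%, 13.7% and 1.28% rose in these comparisons, and 36.1%, 28.1% and 2.93% were called in either direction. The medians over all tested genes were 0.0043, -0.0083 and 0.010. Taken over both directions, the share called among the 46 was no larger than that of all tested genes in any comparison.

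Among 12 tested regulators, 4 rose and 1 fell in Phase 1 leaves against Control. Of all tested genes 17.4% rose and 18.6% fell there (36.1% in all). BHLH34, a bHLH activator upstream of the Ib genes, rose by 1.28 on the log2 scale (adjusted p = 0.00122). It had 1008, 1080 and 774 normalised counts in Phase 1, 445, 294 and 441 in Phase 0 and 451, 302 and 427 in Control libraries. FIT, listed in the reference as FRU and the partner of the Ib factors in roots, rose by 0.67 (adjusted p = 0.0338). In Phase 0 against Control FIT was at 0.75, without overlap of the groups, but did not pass the test (adjusted p = 0.0965). The locus AT1G18910, annotated as a zinc ion binding protein, rose by 0.79 in Phase 1 against Control (adjusted p = 0.0486), a call lost in 15 of 20 alternatives. MYB10, a root iron deficiency factor, had a log2 change of -1.09 in the same comparison (adjusted p = 0.0207). Against Phase 0, BHLH34 rose by 1.29 (adjusted p = 0.00154) and BHLH104 by 0.58 (adjusted p = 0.0248). BHLH101 and AT1G74770 were too low to test and MYB72 had no row.

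Of the root uptake genes, IRT1, IRT2, AT3G12900 and CYP82C4 had no row and 4 were tested. FRO2, the ferric reductase of the root surface, was low but rose by 1.50 in Phase 1 leaves (adjusted p = 0.00390) and by 1.42 in Phase 0 leaves (adjusted p = 0.0370), each against Control. It had 88, 64 and 62 normalised counts in Phase 1, 78, 41 and 93 in Phase 0 and 26, 25 and 22 in Control libraries. The Phase 0 call of FRO2 was lost in 9 of 20 alternatives, with adjusted p-values up to 0.172. ABCG37, an exporter of iron-binding coumarins, rose by 1.29 in Phase 1 leaves against Control (adjusted p = 0.0370). Its values were low and the groups overlapped, at 27, 55 and 51 in Phase 1 and 9, 30 and 17 in Control libraries. AHA2, a plasma membrane proton pump, had log2 changes of -1.19 in Phase 1 against Control (adjusted p = 0.000160) and -0.80 against Phase 0 (adjusted p = 0.00210).

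Of 20 tested genes of iron transport, storage and reduction, 7 rose in Phase 1 leaves against Control and 6 rose against Phase 0, with 0 falling in either. Of all tested genes 17.4% and 13.7% rose in these comparisons. The median log2 fold change of the 20 was 0.58 against Control and 0.64 against Phase 0. VTL1 rose by 2.40 (adjusted p = 0.00679), YSL2 by 1.62 (adjusted p = 0.00573), YSL1 by 1.32 (adjusted p = 0.000223) and NRAMP1 by 1.28 (adjusted p = 0.00321) against Control. With single libraries left out, the rise of VTL1 against Control ranged from 1.91 to 3.06, the latter without Phase 1 replicate 2. YSL1 and YSL2 carry metals bound to nicotianamine, and NRAMP1 moves manganese and iron. YSL1 had 1374, 1047 and 1566 normalised counts in Phase 1, 460, 415 and 497 in Phase 0 and 509, 601 and 467 in Control libraries, with Phase 1 above both other groups. Against Phase 0, VTL1 rose by 2.27, YSL2 by 1.83, YSL1 by 1.52 and IRT3, a zinc and iron transporter, by 1.32 (adjusted p = 0.0113, 0.00371, 0.000110 and 0.0155). NAS2, VIT1, VTL5 and IREG2 had no row, and FRD3 was too low to test.

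Of 10 tested genes of plastid iron-sulphur cluster assembly, 0 rose and 1 fell in Phase 1 against Control, and 1 rose and 0 fell in Phase 1 against Phase 0, where 36.1% and 28.1% of all tested genes were called. An unadjusted p under 0.05 was reached by 4 and 5 of the 10, and the groups did not overlap for 5 in each comparison, against 47.4% and 50.2% of all tested genes. ABCI7, the SUFD subunit of the assembly scaffold, had a log2 change of -0.35 in Phase 1 against Control (adjusted p = 0.0340), and NFU3, a cluster carrier, rose by 0.40 in Phase 1 against Phase 0 (adjusted p = 0.0416). NEET was at 0.83 (adjusted p = 0.0820) and NFU1 at -0.54 (adjusted p = 0.0571) in Phase 1 against Control. The SUFE1 gene had no row.

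Of the other calls in Phase 1 against Control, that of ABCG37 was lost in 9 of 20 alternatives, those of FIT and ABCI7 in 8 each and that of MYB10 in 3. In Phase 1 against Phase 0, that of NFU3 was lost in 8, that of BHLH104 in 4 and that of IRT3 in 3. Those for BHLH34, AHA2, VTL1, YSL1 and YSL2 in both comparisons, and for FRO2 and NRAMP1 in Phase 1 against Control, held in all 20.

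Most leaf and clock markers, and 1 of 3 senescence markers, also differed between Phase 1 and Control leaves. Of the 4 leaf markers, CAB1, LHCA1 and LHCA3 fell in Phase 1 against Control (log2 changes of -0.76, -0.83 and -0.57), and RBCS1A, at -0.41, did not pass the test (adjusted p = 0.0974). The chlorophyll breakdown gene NYE1 rose by 1.20 (adjusted p = 0.00425), while SAG13 was at -0.17 (adjusted p = 0.851) and SAG12 had no row. The summed counts of the morning genes LHY, CCA1, PRR9 and RVE8 were 18377 to 25394 in Phase 1, 2083 to 2116 in Phase 0 and 1547 to 2476 in Control libraries. The summed evening genes TOC1, PRR5, GI, ELF4, LUX and FKF1 were 1263 to 1732 in Phase 1, 10271 to 10996 in Phase 0 and 5286 to 6625 in Control libraries. The labels give no hour of harvest, and the part of the time of day, or of these leaf markers, in the rises of FER1, NAS3 and the other genes of Phase 1 was not tested. Its part in the differences between Phase 0 and Control leaves, whose evening sums also lay apart, was not tested either.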

How the data were processed

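Poly(A) RNA of 9 leaf libraries was sequenced, per the labels. The deposited score is a normalised read count per gene, which the authors made from read counts, as far as the table's name and its values show, by scaling each library and rounding. Per the submitters' processing notes, FastQC, Subread, STAR 2.4.0a, featureCounts 1.4.5-p1 and DESeq2 were used with the TAIR10 build. The role of each tool, any gene filter and the strand setting are not stated there. The number of reads behind a value is unknown, so no counting interval is given.

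Values were analysed as log2(value + 1) with limma 3.58.1 in R 4.3.3, trend option, all 9 libraries in 1 model of 3 groups, for genes with a mean of at least 10. Each gene has 1 estimate of spread over the 3 groups, so its SE is the same in every comparison. The SE of Phase 0 against Control therefore includes the Phase 1 spread. P-values were adjusted by Benjamini-Hochberg over 18650 genes, with a threshold of 0.05. Fold changes are on the log2(value + 1) scale, which understates those of low genes. The step was tested on simulated data. Ferritin ratios were tested with exact permutation over libraries in scipy 1.17.1. Levels per kilobase use the longest RefSeq TAIR10.1 transcript. Upstream sequence was read from the RefSeq TAIR10.1 genome by locus, and no coordinates are printed since the release differs from that of the authors. Symbols came from RefSeq, where 21054 of 21176 loci matched.

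The members and gene lists were chosen with earlier results of these data known. Named from the 4 iron lists are up to 4 called genes with the largest change per list and comparison, and every listed gene without a row or test. Values of other listed loci are given where the text describes the order of libraries, and those were chosen after their values were seen. Alternatives were other pseudocounts, filters, normalisations and models, the replicate number as a block, and libraries left out. Python 3.11.15, numpy 2.4.6, pandas 2.3.3, Biopython 1.88 and matplotlib 3.10.9 were used for tables, sequences and figures.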

Additional observations from a re-analysis of the deposited data

Results flagged for a closer look

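FER1 differed between the salt-treated groups: its log2 level in Phase 1 leaves exceeded that in Phase 0 leaves by 2.85, tested directly with limma (adjusted p = 0.0119), with all 3 Phase 1 libraries above all 3 Phase 0 libraries. The call was lost in 2 of 20 alternatives, both without Phase 0 replicate 2 (adjusted p = 0.0507 and 0.0510), and the value ran from 2.00 to 3.80 with single libraries left out. Dose, exposure time and mode of salting also differ between these groups, and the time of day was not tested.

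NAS3 likewise differed between these groups, by 1.52 on the log2 scale (adjusted p = 0.00136), higher in all 3 Phase 1 libraries. Both comparisons use Control only through the shared estimate of spread.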

How the results depend on the processing

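Each gene was refitted under 20 alternatives. FER1 and NAS3 in Phase 1 against Control were called in all 20 (highest adjusted p 0.0189 and 0.0263), and NAS3 against Phase 0 too (0.00702). With single libraries left out, FER1 ranged from 2.40 to 4.21 against Control and from 2.00 to 3.80 against Phase 0. FER1 against Phase 0 was no longer called with Phase 0 replicate 2 left out, alone (2.55, adjusted p = 0.0507) or with Control replicate 1 (2.55, adjusted p = 0.0510). With both of these libraries left out, signs turned for BTS in Phase 0 against Control (-0.036), OPT3 in Phase 1 against Control (0.049), and BTS (0.35) and OPT3 (0.15) in Phase 1 against Phase 0. Quantile normalisation turned BHLH100 in Phase 1 against Control (-0.014) and BTS in Phase 1 against Phase 0 (0.0029).

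Leaving out single libraries turned the sign of further uncalled values. In Phase 0 against Control the ranges were FER3 -0.19 to 0.057, FER4 -0.22 to 0.31, BHLH100 -1.70 to 1.40, PYE -0.50 to 0.58, BTS -0.15 to 0.46 and OPT3 -0.50 to 0.11. In Phase 1 against Control they were FER3 -0.36 to 0.83, BHLH100 -0.67 to 2.14, PYE -0.49 to 0.79, BTS -0.36 to 0.61 and OPT3 -0.87 to 0.079. In Phase 1 against Phase 0 they were FER3 -0.28 to 0.91, BHLH100 -0.21 to 2.14, PYE -0.58 to 0.64, BTS -0.58 to 0.39 and OPT3 -0.64 to 0.31. The cause was not tested. BHLH100 fell below the mean needed for testing without Phase 1 replicate 2.

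Counts of all called genes ran from 118 to 882 in Phase 0 against Control (212 without Control replicate 1 and Phase 0 replicate 2), from 4892 to 6757 in Phase 1 against Control and from 3379 to 6710 in Phase 1 against Phase 0 when single libraries were left out. Omitting Phase 0 replicate 3 gave the 118 and omitting Control replicate 2 the 882, while 183 were called when Phase 0 replicate 2 was dropped and 173 when Control replicate 3 was. The 3379 came from dropping Phase 0 replicate 2.

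Replicate numbers showed no pairing of the libraries. Deviations of same-numbered libraries correlated at -0.2521 to 0.2523 across genes, and those of differently numbered libraries at -0.3371 to 0.3274. With 3 libraries a group, these correlations cannot exclude a shared batch. The replicate block left FER1 called in Phase 1 against Control (3.25, adjusted p = 0.00529) and changed no call among the 8 genes. The number of reads behind each value is unknown, so what depth limits cannot be given.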
